A study of Mus musculus with 2 samples.

Results

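Zfp36, Btg1 and 8 other genes that set how long messenger RNAs last were compared between cultured neutrophils lacking the microRNA miR-223 and wild-type neutrophils. The genes were picked by name, with earlier results of these data known. Every probe set that the platform annotation assigns to 1 of these symbols alone was taken, on both arrays. All 10 genes were measured, by 29 probe sets, among 18193 genes on the array. Neutrophils had been grown from bone marrow progenitors of male mir-223 knockout mice and of male wild-type mice, both of strain C57BL/6. Both cultures received granulocyte colony-stimulating factor (G-CSF), which drives granulocyte production, and stem cell factor (SCF), the ligand of the receptor Kit, for 6 days. Both were exposed to cycloheximide, a blocker of translation, at 100 ug/ml for the last 8 min. The number of mice behind each culture is not stated in the labels. There was 1 Affymetrix 3' array per genotype, so the differences below have no replicates behind them and carry no test.

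Many messages of immune cells carry AU-rich elements in their tails, which mark them for fast removal. The CCCH zinc finger proteins Zfp36 (tristetraprolin), Zfp36l1 and Zfp36l2 bind such elements and recruit the CCR4-NOT complex, which shortens the poly(A) tail. Zc3h12a (regnase-1) cuts stem-loops in inflammatory messages, and Khsrp also promotes decay of AU-rich messages, whereas Elavl1 (HuR) binds and tends to stabilize them. Btg1, Btg2, Tob1 and Tob2 are antiproliferative proteins that bind the deadenylase subunits Cnot7 and Cnot8. Several of these genes are themselves short-lived early-response messages, and block of translation is known to raise such messages in many cells.

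The microRNA that the knockout lacks pairs with targets mainly through its seed, bases 2 to 8, which is in capitals here. Its mature strand, from RefSeq on build GRCm38.p6 at chrX:96242884-96242905, plus strand, is shown because it defines the genotype.
mmu-miR-223-3p: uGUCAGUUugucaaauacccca
The miR-223 gene had no probe set under its name, and its loss was not checked on these arrays. Pairing of the seed with tails of the 10 messages was not analysed here.

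The values are deposited linear intensities. A difference is the log2(intensity + 16) of the mir-223 knockout less that of the wild type, so a positive one means higher in the knockout. On this scale a level 25% higher is a difference of 0.32, and 1.5-fold is 0.58. Precision is limited throughout by having so few arrays. A gene took its brightest probe set and counted as expressed when the mean of that probe set was at or above the median of all probe sets, 5.64 on the log2 scale. Of 18193 genes 11006 were expressed, all 10 regulators among them, and the median difference over expressed genes was -0.00037. The SD between expressed probe sets of one gene, pooled over 5017 genes, was 0.14. It is the one measure of spread at hand and is not a replicate error. Intensities of different probe sets depend on their probes, so levels are compared only between the arrays, never between genes.

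The defining markers of neutrophils were bright on both arrays. Of 13 measured markers all were expressed and 12 were higher on the knockout array, where 49.7% of all expressed genes were. Their median difference was 0.15, with Cd177 (0.59) highest and Camp (-0.29) the one that was lower. Intensities, summed over all measured markers of the list, were 174896 on the knockout array and 163672 on the wild-type array. Such sums, here and below, mostly follow the brightest probe sets of a list and are compared only between the arrays. Markers of mast cells and basophils were lower in 8 of 8, where 50.1% of all expressed genes were. Kit was lower only by its brightest probe set (-0.047, within the pooled SD), and its other expressed probe set was higher (0.18). The mast cell protease Cma1 was lowest (-0.76), and the sums were 4556 in the knockout and 6542 in the wild type. Megakaryocyte markers were lower in 6 of 7 (sums of 1299 on the knockout array and 2020 on the wild-type array). Eosinophil markers were lower in 3 of 4 expressed (sums of 977 on the knockout array and 1203 on the wild-type array). Ppbp (-1.06) and Pf4 (-0.91) were the lowest megakaryocyte markers and Prg3 (-0.92) the lowest eosinophil marker, while Itgb3 (1.34) and Siglecf (0.92) were the ones higher. Monocyte and macrophage markers were higher in 5 of 7, with sums of 5626 on the knockout array and 4913 on the wild-type array, from Cx3cr1 (-0.60) to Apoe (1.51). Csf1r made up most of both sums (3836 on the knockout array and 3580 on the wild-type array). Of the B cell markers 1 of 3 was expressed (sums of 209.5 in the knockout and 168 in the wild type), and of the erythroid markers 2 of 3 (152 in the knockout and 150.1 in the wild type). Of the T and NK cell markers 2 of 4 were expressed, Nkg7 being higher (0.47) and Cd3d lower (-0.81), with sums of 1266 in the knockout and 977 in the wild type that Nkg7 dominates. No marker was at 0 on either array. The 24 poly-A control probe sets, RNAs added during preparation, were all lower on the knockout array (median difference -0.17). Of the 18 hybridization controls, added afterwards, 17 were lower (median difference -0.11). These shifts are as large as many of the differences below, and their part in them was not tested.

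As a group the decay regulators were slightly higher on the knockout array. On the brightest probe sets 9 of the 10 were higher, where 49.7% of all expressed genes were, and Khsrp was lower. Their median difference was 0.19. The list was chosen with earlier results of these data known, so its counts are no independent test beside the shares of all genes. At the main threshold of 1.5-fold none of the 10 was higher or lower on the brightest probe sets. The shares among all expressed genes were 0.691% higher and 0.391% lower. Both this count and the 9 higher depend on the probe set taken for Btg2, whose other one stood at -0.74. At the smaller threshold, an alternative to it, Btg1, Tob1, Zfp36 and Zfp36l1 were at least 25% higher, 4 of 10 genes where the share among all expressed genes was 4.4%. None had a difference of -0.32 or below, where the share among all expressed genes was 2.39%. Several of these genes are known to be induced together, and fewer or more cells of a type cannot be told apart from less or more RNA per cell in these bulk samples. With the mean of all probe sets in place of the brightest, 7 of the 10 were higher and 3 lower, and the median difference was 0.068. In that setting 2 were 25% higher and 1 (Btg2) was past -0.32, where 3.35% and 1.55% of all expressed genes were. Without probe sets whose names end in _a_at, _s_at or _x_at, 2 genes (Tob1 and Zfp36l1) were 25% higher, where 4.69% of all expressed genes were. In that setting Zfp36 had no probe set and Btg1 stood at 0.31.

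**Figure D1:**
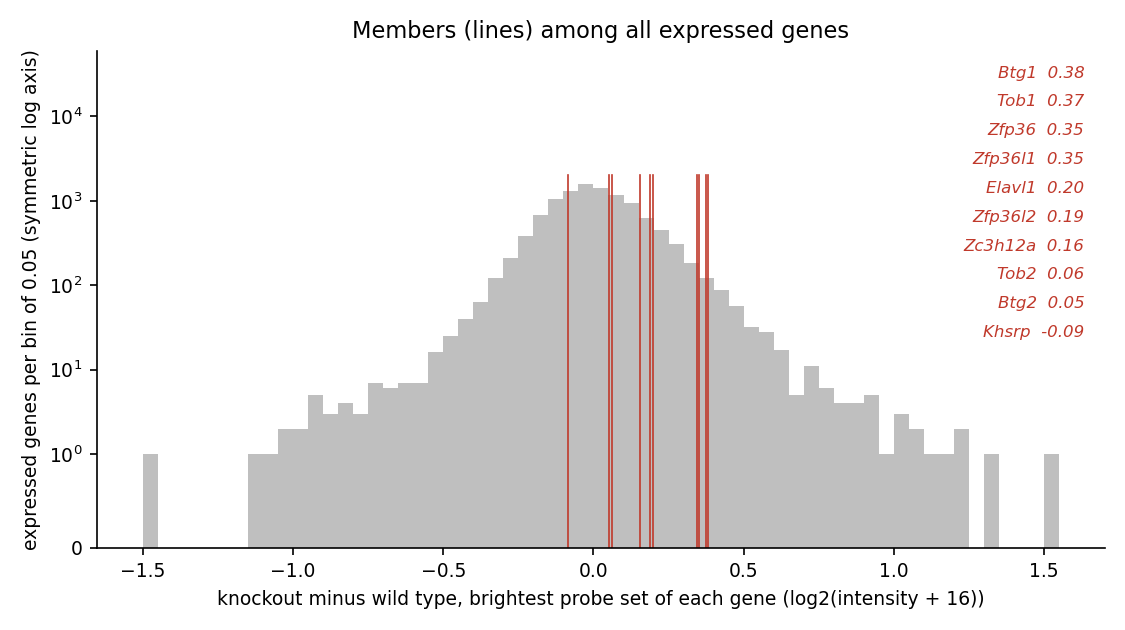
Grey bars count expressed genes (symmetric log axis) in bins of 0.05 of the difference, mir-223 knockout minus wild type on the log2(intensity + 16) scale, for the brightest probe set of each gene. Red lines mark the 10 decay regulators, from Khsrp at -0.09 to Btg1 at 0.38. Of them 4 are past 0.32 (25% higher), where 4.4% of all expressed genes are.

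Zfp36, the founding member of the zinc finger family and a destabilizer of Tnf messages, had an intensity of 1381 on the knockout array and 1079 on the wild-type array. On the log2(intensity + 16) scale it was 1.28-fold higher in the knockout (0.35). Of expressed genes 3.51% had a difference at least as high. The value rests on 1 probe set, so nothing on the array could agree or disagree with it. Across the alternatives in pseudocount and scaling it ranged from 0.33 to 0.36.

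Zfp36l1, a relative with a role in lymphocyte quiescence, gave 1218 on the knockout array and 955 on the wild-type array at its brightest probe set (0.35). Its dimmer probe set gave 177 on the knockout array and 145 on the wild-type array (0.26). Both probe sets were higher in the knockout, 0.084 apart, which is less than the pooled SD.

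Zfp36l2, needed in mice for blood stem cells, was less clear. Its brightest probe set gave 2665 on the knockout array and 2340 on the wild-type array (0.19). A second gave 108.3 on the knockout array and 96.5 on the wild-type array (0.14). The third, with 64.3 on the knockout array and 71.6 on the wild-type array, had the opposite sign (-0.13). The family therefore stood in the order Zfp36, Zfp36l1, Zfp36l2 by difference, but the first pair were nearly equal, far within the spread between probe sets. The mean of all 3 probe sets of Zfp36l2 was 0.068.

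Zc3h12a, the endonuclease, was at 122 on the knockout array and 108.3 on the wild-type array (0.16). Its other probe set gave 57.9 on the knockout array and 56.1 on the wild-type array (0.035). Both signs were positive, and 17.0% of expressed genes had a difference at least as high as the brighter of them.

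Khsrp, a KH domain protein that brings decay enzymes to AU-rich messages, was the one gene of the 10 that was lower. Its brightest probe set gave 626 on the knockout array and 665 on the wild-type array (-0.086). A second, nearly as bright, gave 589.7 on the knockout array and 670.0 on the wild-type array (-0.18), and the dimmest gave 166.0 on the knockout array and 167.3 on the wild-type array (-0.011). All 3 were lower, but the brightest and the dimmest differences were within the pooled SD between probe sets.

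The Btg and Tob adaptors ranged most widely. Btg1, which restrains proliferation and is abundant in resting white cells, had the highest difference of the 10 genes. Its brightest probe set gave 2886 on the knockout array and 2210 on the wild-type array, 1.30-fold higher in the knockout on the log2(intensity + 16) scale (0.38). A second gave 1245 on the knockout array and 961 on the wild-type array (0.37), and the third gave 393 on the knockout array and 313 on the wild-type array (0.31). The 3 probe sets lay within 0.070 of each other, where the median range of genes with 3 or more expressed probe sets was 0.23. Of 2133 such genes, 14 (0.656%) had every expressed probe set at or above the lowest of Btg1. That cutoff came from Btg1 itself, the highest of the 10 genes, so the share describes its place and is no test.

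Btg2, an early-response gene and a known p53 target, gave 2 conflicting readings. The probe set 1448272_at, the brighter by mean, gave 498 on the knockout array and 480 on the wild-type array (0.050). The probe set 1416250_at, named for the same accession, gave 299 on the knockout array and 509 on the wild-type array, 1.67-fold lower in the knockout on the log2(intensity + 16) scale (-0.74). A gap of 0.79 was wide for these arrays: among 2884 genes with 2 expressed probe sets, 11 (0.381%) had a range at least that large, and the median range was 0.12. The sign for Btg2 therefore depends on the probe set, and the mean of both was -0.34. On the wild-type array alone 1416250_at was the brighter, so the choice by mean rests on its lower value in the knockout. Where each probe set lies on the transcript was not analysed here.

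Tob1, a related antiproliferative adaptor that also binds poly(A)-binding protein, gave 440 on the knockout array and 336 on the wild-type array at its brightest probe set (0.37). Its other probe set, just above the expression threshold, gave 31.4 on the knockout array and 40.8 on the wild-type array (-0.26). The 2 readings were 0.63 apart, and their mean was 0.057.

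Tob2 had 5 expressed probe sets, 4 higher and 1 lower, from -0.091 to 0.20. The brightest gave 553 on the knockout array and 529 on the wild-type array (0.063). The probe set with the highest difference gave 424 on the knockout array and 368 on the wild-type array (0.20). Of expressed genes 34.1% had a difference at least as high as that of the brightest.

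Elavl1, the stabilizer, was measured by 6 probe sets. The brightest gave 1112 on the knockout array and 968 on the wild-type array (0.20). The next gave 909 on the knockout array and 895 on the wild-type array (0.022). Of the dim ones, 2 were expressed, at -0.098 and 0.060, and 2 were below the threshold, at -0.23 and -0.034. The mean of all 6 was -0.014, so no direction holds across the probe sets of Elavl1.

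**Figure D2:**
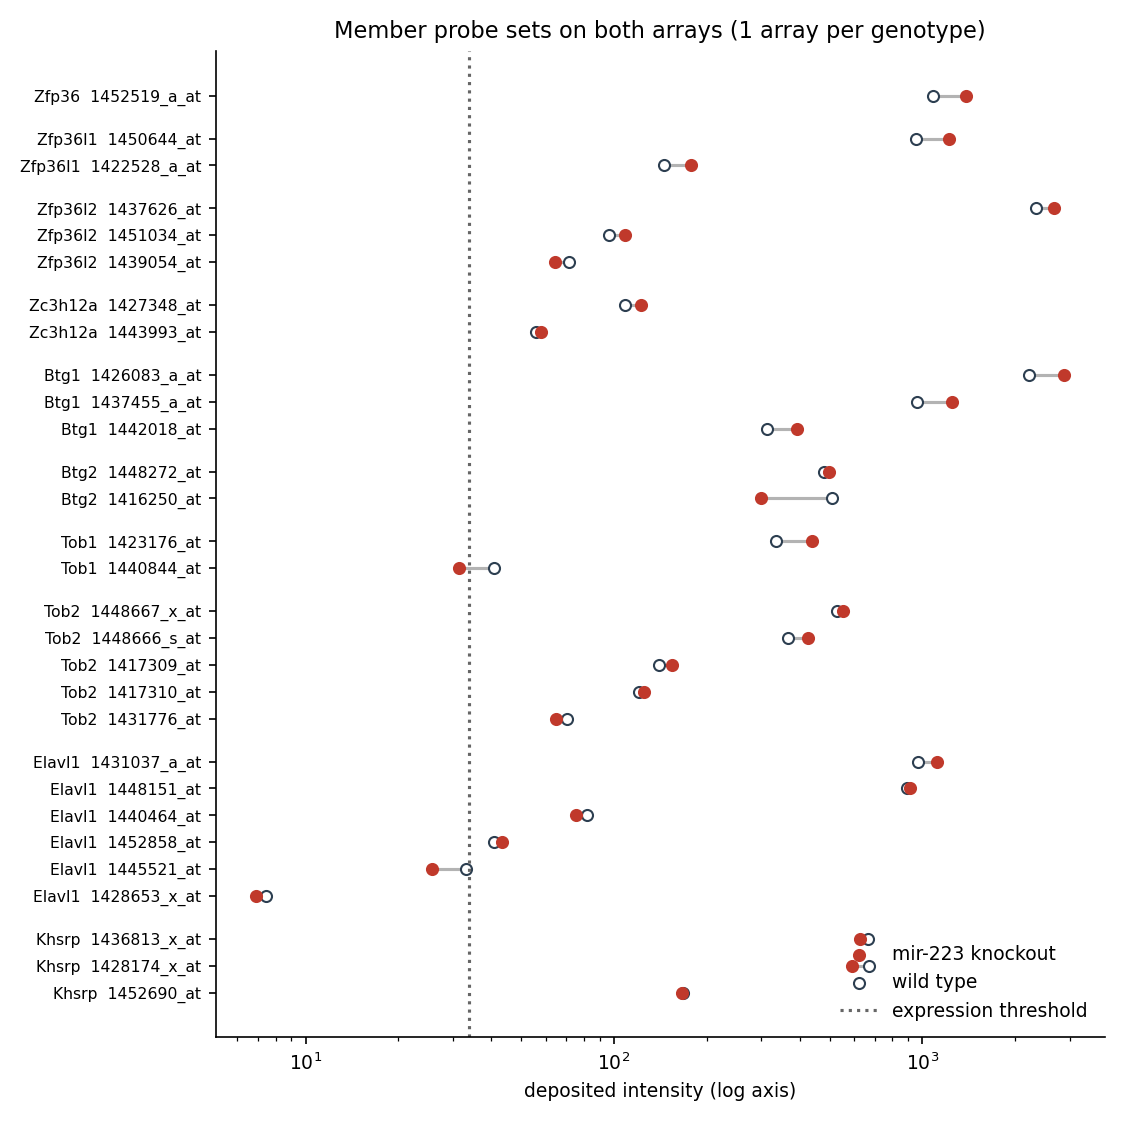
Each row is 1 probe set, with its deposited intensity (log axis) on the mir-223 knockout array as a filled point and on the wild-type array as an open point. The dotted line is the expression threshold. All probe sets of Btg1 and Zfp36l1 lie to the right in the knockout, and the probe set 1416250_at of Btg2 shows the widest gap, 299 on the knockout array against 509 on the wild-type array.

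Over all 29 probe sets, 27 were expressed, and 19 of these were higher and 8 lower on the knockout array. Among all expressed probe sets named for 1 gene, 53.6% were higher. Of the 9 genes with at least 2 expressed probe sets, 3 (Zfp36l1, Zc3h12a and Btg1) were higher throughout, Khsrp was lower throughout and 5 had both signs. Among 5017 genes with at least 2, 30.2% were higher throughout and 21.7% lower throughout.

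**Figure D3:**
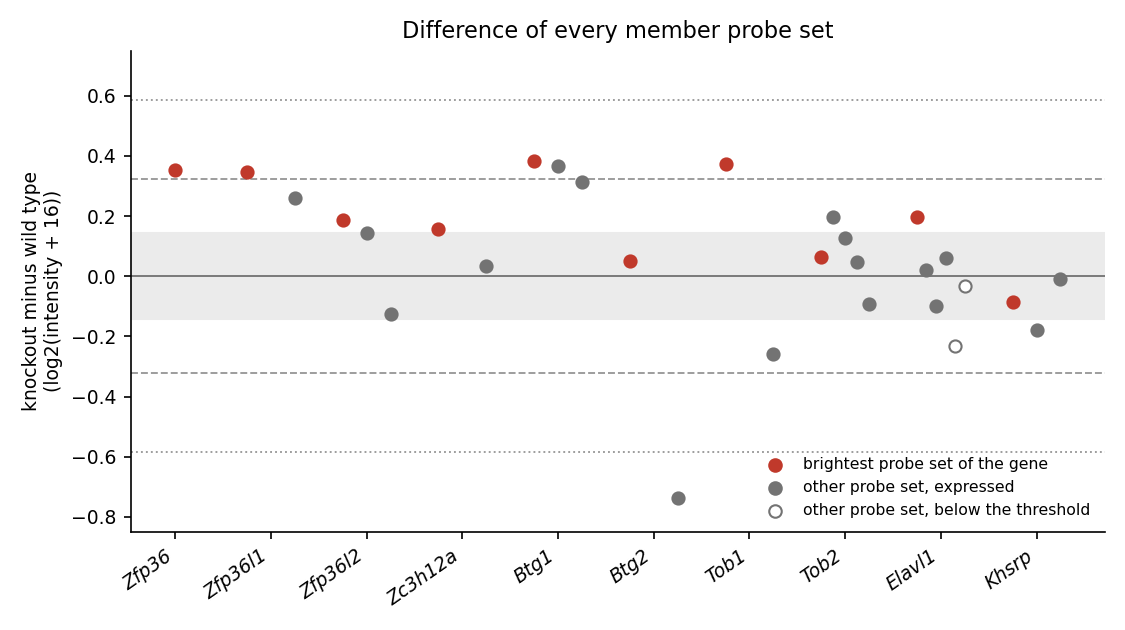
Points are single probe sets of the 10 genes, as mir-223 knockout minus wild type on the log2(intensity + 16) scale, red for the brightest of each gene, grey for other expressed ones and open for those below the threshold. The band is the pooled SD between probe sets (0.14), the dashed lines mark 0.32 on either side (25% higher) and the dotted lines 1.5-fold (0.58), which only the second probe set of Btg2 passes, at -0.74.

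The promoters of the 4 genes that were at least 25% higher are printed with that of Btg2, so that their starts can be compared. They are the 250 bases before the annotated start, from RefSeq on build GRCm38.p6, which held 9 of the 10 genes (not Zfp36l2). Capitals mark matches on either strand to several motifs. The TATA box, which places the start of transcription, was searched as TATAAA. The cyclic AMP response element was searched by its core TGACG and by its full form, TGACGTCA, which holds the core on each strand. The CCAAT box, a common upstream element, was searched by the letters in its name. The CArG box, the site of serum response factor, was searched as CCWWWWWWGG, where W is A or T.
Zfp36 promoter, chr7:28379229-28379478, minus strand: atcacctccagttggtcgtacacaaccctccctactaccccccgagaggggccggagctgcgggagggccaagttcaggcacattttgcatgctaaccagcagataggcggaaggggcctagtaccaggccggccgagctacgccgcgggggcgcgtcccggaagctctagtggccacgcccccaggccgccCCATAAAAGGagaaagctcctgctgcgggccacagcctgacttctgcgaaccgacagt
Zfp36l1 promoter, chr12:80113014-80113263, minus strand: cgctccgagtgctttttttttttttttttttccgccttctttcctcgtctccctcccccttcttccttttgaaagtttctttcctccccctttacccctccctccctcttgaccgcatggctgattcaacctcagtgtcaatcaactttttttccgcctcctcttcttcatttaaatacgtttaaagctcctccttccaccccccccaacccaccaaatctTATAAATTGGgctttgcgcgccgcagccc
Btg1 promoter, chr10:96616751-96617000, plus strand: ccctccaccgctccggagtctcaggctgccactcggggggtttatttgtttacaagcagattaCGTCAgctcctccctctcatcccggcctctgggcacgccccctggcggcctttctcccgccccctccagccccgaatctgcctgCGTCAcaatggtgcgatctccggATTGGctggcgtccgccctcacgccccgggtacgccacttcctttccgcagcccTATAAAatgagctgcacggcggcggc
Tob1 promoter, chr11:94211204-94211453, plus strand: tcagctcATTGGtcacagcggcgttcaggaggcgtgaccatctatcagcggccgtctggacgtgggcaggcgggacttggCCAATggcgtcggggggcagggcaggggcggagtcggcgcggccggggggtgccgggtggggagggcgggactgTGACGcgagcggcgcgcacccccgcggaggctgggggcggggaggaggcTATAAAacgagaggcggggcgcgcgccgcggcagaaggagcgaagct
Btg2 promoter, chr1:134079156-134079405, minus strand: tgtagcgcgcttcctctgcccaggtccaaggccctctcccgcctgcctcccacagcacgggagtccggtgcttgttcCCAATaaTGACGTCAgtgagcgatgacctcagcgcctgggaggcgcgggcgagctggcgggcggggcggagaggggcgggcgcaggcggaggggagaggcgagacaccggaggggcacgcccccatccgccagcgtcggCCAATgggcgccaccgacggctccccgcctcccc
A CArG box stood 58 to 49 bases before the start of Zfp36 and before no other of the 9 genes, and 1.47% of the 32817 promoters in the table held one. It shares 1 base with a reverse GC box. The TATA box letters stood before Zfp36l1 (29 to 24 bases before the start), Btg1 (26 to 21) and Tob1 (47 to 42), 3 of 9, where 12.4% of all promoters held them. In Zfp36l1 they overlap a reverse CCAAT box by 1 base. The core TGACG was found in Btg1, Btg2, Tob1 and Khsrp, 4 of 9 against 17.7% of all promoters. The full element TGACGTCA stood in Btg2 alone, 166 to 159 bases before the start, and in 1.55% of all promoters. CCAAT was present in 6 of 9 against 33.8%, and the GC box GGGCGG, not in capitals above, in 7 of 9 against 32.7%. The 9 promoters held from 48.4% to 73.6% G and C, where the median promoter held 52.4%, and the shares were not adjusted for this. A match describes letters and is neither a bound site nor a cause.

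**Figure D4:**
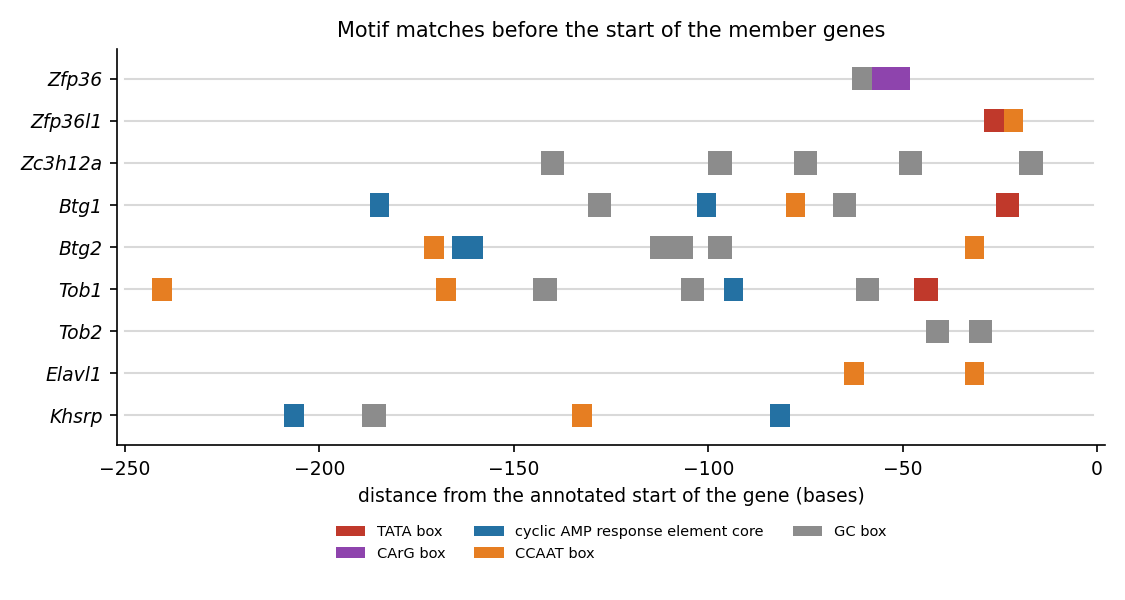
Bars are motif matches on either strand in the 250 bases before the annotated start (0) of the 9 genes with a promoter sequence, with colour giving the motif. TATA box letters lie within 50 bases of the start in Zfp36l1, Btg1 and Tob1, and the CArG box of Zfp36 ends 49 bases before its start.

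The enzymes that these proteins recruit were divided in sign. Of 13 measured deadenylase genes of the CCR4-NOT, PAN and PARN classes, all expressed, 7 were higher and 6 lower, with a median difference of 0.041. All 6 that were lower lay within the pooled SD between probe sets. Of those that were higher, Cnot6, Cnot2, Pan3 and Cnot8 lay beyond it. None was past 0.32 in either direction, where 4.4% of all expressed genes were past it higher and 2.39% lower. With shares this small, none among 13 genes says little. Cnot7, bound by Btg and Tob proteins, gave 1439 on the knockout array and 1398 on the wild-type array (0.041), and Cnot8 gave 686 on the knockout array and 589 on the wild-type array (0.22). The largest difference was that of the catalytic subunit Cnot6, at 1762 on the knockout array and 1436 on the wild-type array (0.29), with probe sets from 0.048 to 0.85. Cnot2, a scaffold subunit, stood at 0.22, Pan3 at 0.22, Cnot11 at -0.026, Cnot3 at -0.033 and Cnot9 at -0.11. The probe sets of Cnot2 (-0.046 to 0.22) and of Cnot11 (-0.026 to 0.062) had both signs.

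Decapping and exonuclease genes were divided, 12 of 20 expressed being higher, and the median difference was 0.022. The decapping factor Dcp1b (0.32, just below the 25% mark) and the helicase Ddx6 (0.20, with 3 probe sets from 0.20 to 0.30) were highest, followed by Exosc2 (0.15). The exosome subunits Exosc9 (-0.15), Exosc1 (-0.21) and Exosc7 were lowest, and Exosc7 gave 1145 on the knockout array and 1439 on the wild-type array (-0.33). It was the one gene of this list past -0.32, 1 of 20 where 2.39% of all expressed genes were.

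Relatives of the 10 genes were divided. Fubp3, a KH domain relative of Khsrp, gave 255 on the knockout array and 166 on the wild-type array (0.58), a difference above that of any of the 10 genes. Zc3h12d, a relative of regnase-1, gave 75.3 on the knockout array and 49.98 on the wild-type array (0.47). Both rest on 1 probe set. Fubp1 (-0.18, with 3 probe sets from -0.18 to 0.056), Zc3h12c (-0.18) and Elavl3 (-0.11) were lower. The median of the 5 expressed relatives was -0.11, the value of Elavl3. Elavl3 gave 40.9 on the knockout array and 45.6 on the wild-type array, and Zc3h12c 31.1 and 37.3. Both were close to the expression threshold, an intensity of 33.9. Btg4, Elavl2 and Elavl4 were not expressed.

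Of other proteins that bind message tails 10 of 13 were lower, where 50.1% of all expressed genes were, with a median difference of -0.027. Of these 10, 9 lay within the pooled SD between probe sets. The exception in size was Arid5a, which protects Il6 messages against regnase-1 in mice, at 490.1 on the knockout array and 349 on the wild-type array (0.47). Samd4b (0.19) and Ybx1 (0.075) were the other two that were higher. Tial1, which silences AU-rich messages, gave 653 on the knockout array and 782 on the wild-type array (-0.25), with 4 probe sets from -0.25 to 0.082. Rc3h1 (roquin-1) stood at -0.11 and Pcbp2 at -0.074.

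Genes of the p38, MK2, phosphatase and 14-3-3 classes that act on Zfp36 proteins had a median difference of 0.045. Of these, 9 of 14 were higher, where 49.7% of all expressed genes were. Dusp1, the phosphatase that switches off p38, gave 783 on the knockout array and 561 on the wild-type array (0.47). Mapkapk2 (MK2), the kinase that phosphorylates Zfp36, gave 1413 on the knockout array and 1583 on the wild-type array (-0.16). The phosphatase subunit Ppp2cb stood at 0.29 and the 14-3-3 protein Ywhah at 0.28, whereas Ywhaq (-0.14) and Mapkapk3 (-0.042) were lower.

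Reported decay targets of the zinc finger proteins or of regnase-1 were near 0 as a list. Of 22 measured, 15 were expressed, 7 higher and 8 lower, with a median difference of -0.015. Tnf, the best known target of Zfp36, gave 292 on the knockout array and 386 on the wild-type array (-0.39), the one expressed target past -0.32, 1 of 15 where 2.39% of all expressed genes were. Ccl2, a monocyte chemokine, gave 30.9 on the knockout array and 42.1 on the wild-type array (-0.31), and Il1b gave 1272 on the knockout array and 1387 on the wild-type array (-0.12). Ccl3 (0.14), Myc (0.13) and Cxcl2 (0.066) were highest, all within the pooled SD. Il6, Il10, Il12b, Il23a, Csf2, Lif and Ptgs2 were not expressed. Of these dim genes Ptgs2 (-0.59) and Il6 (-0.34) were also past -0.32, and none was past 0.32 higher. Ptgs2 gave 18.7 on the knockout array and 36.3 on the wild-type array, above the expression threshold only on the latter.

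**Figure D5:**
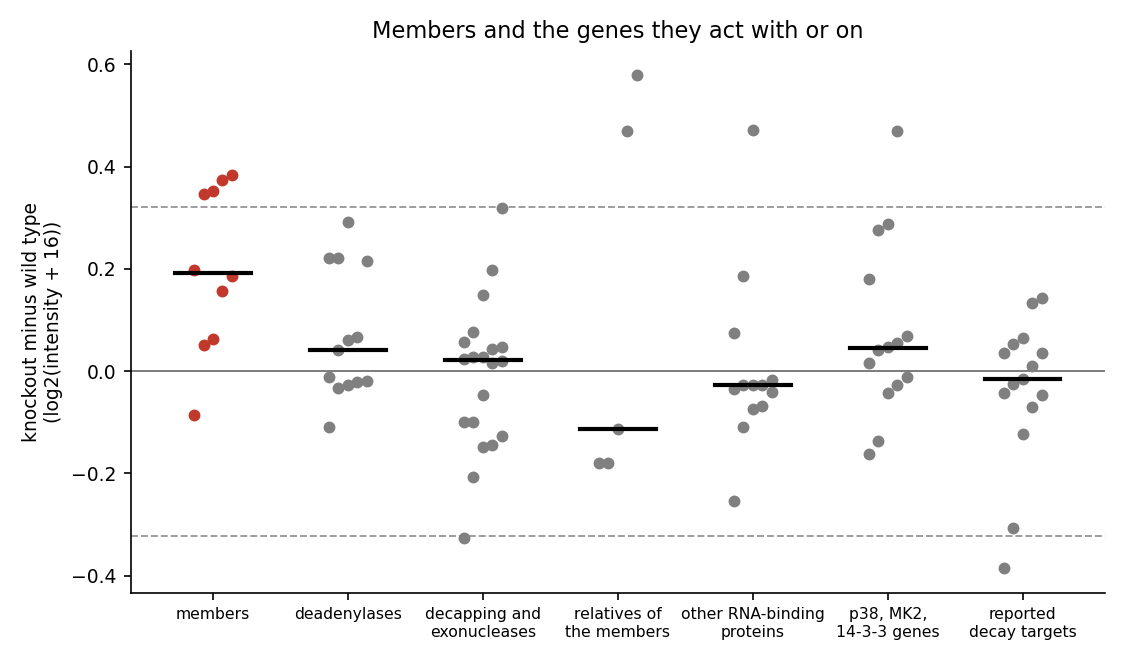
Points are expressed genes, by mir-223 knockout minus wild type on the log2(intensity + 16) scale, for the 10 decay regulators (red) and 6 lists of genes that work with them or are acted on by them (grey), with the median as a bar and differences of 0.32 (25% higher) and -0.32 as dashed lines. The regulators have a median of 0.19, and the lists have medians from -0.11 to 0.045. The lowest is that of the 5 expressed relatives, of which Elavl3 and Zc3h12c are close to the expression threshold.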

How the data were processed

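Total RNA was profiled on 2 arrays, 1 from mir-223 knockout and 1 from wild-type cultures, grouped by labelled genotype. RNA, per the labels' protocols, was extracted with Trizol and labelled with the 3' IVT Express kit. The deposited value is a linear intensity for each probe set on each array. How the authors corrected, summarized and normalized it is not stated in the labels. Values were used as deposited, from 4.49 to 31305 on the knockout array and from 4.56 to 29262 on the wild-type array, as log2(intensity + 16), which shrinks differences of dim genes.

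Of 45101 probe sets 64 were controls. Of the other 45037, GEO's platform annotation gave 1 gene for 34945, several for 932 and no gene for 9160, and symbols of 34741 were matched through Entrez identifiers to RefSeq on GRCm38.p6. Only probe sets with 1 gene were used for genes.

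Named were all 10 members and, from each of the 6 lists of related genes, the expressed genes with the 3 highest and 3 lowest differences; Cnot7, Cnot8, single cell type markers and unexpressed genes were named after their values were seen. Members and lists were chosen with earlier results of these data known. Counting at 1.5-fold was tested on simulated data with planted 2-fold changes. These changes were far larger than the simulated noise, which was narrower than the spread between probe sets here. Their recovery was therefore nearly certain in advance, and the simulation checks the counting alone. Counting at the 25% threshold was not tested in this way. Python 3.11.15, pandas 2.3.3 and statsmodels 0.14.6 were used. Alternatives were pseudocounts of 1 and 64, median centring, quantile normalization and a subtracted loess curve (span 0.3). Others were the mean over all probe sets of a gene and no probe sets ending in _a_at, _s_at or _x_at. The last were no filter or a filter at the 75th percentile, and thresholds of 25% and of 2-fold.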

Additional observations from a re-analysis of the deposited data

How the results depend on the processing

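No paired analysis was possible because each genotype has 1 array, and no array could be left out. The 25% threshold was itself planned as an alternative to 1.5-fold; running it under the other settings was added after seeing the data. The count of regulators at least 25% higher was 4 in each pseudocount, scaling and filter setting. The share of all expressed genes in these settings ran from 2.54% (pseudocount 64) to 5.53% (pseudocount 1). The count was 2 with the mean of all probe sets (Btg1 and Zfp36), with 1 past -0.32 (Btg2), where 3.35% and 1.55% of all expressed genes were. Without probe sets ending in _a_at, _s_at or _x_at it was 2 (Tob1 and Zfp36l1) against 4.69%, a setting that leaves Zfp36 with no probe set. The median difference of the regulators ranged from 0.068 (mean of probe sets) to 0.20, and none passed 1.5-fold under these settings. Of 69 differences of single regulators under alternatives, 65 moved by less than the pooled SD between probe sets and 2 took the other sign, both with the mean of probe sets: Btg2 (-0.34) and Elavl1 (-0.014). Tob1 (0.057, mean of probe sets) and Elavl1 (0.022, without probe sets of those suffixes) also moved by more. Over all expressed genes, 76 were at least 1.5-fold higher and 43 lower. A pseudocount of 64 gave 41 higher and 24 lower, a filter at the 75th percentile gave 40 and 20, and the mean of probe sets gave 47 higher. At 2-fold 11 were higher and 5 lower, and at a difference of 0.32 in size 484 and 263, with 4 regulators higher. A higher pseudocount shrinks dim differences and a stricter filter tests fewer genes by construction; the cause of the other shifts was not tested.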
